A study of Arabidopsis thaliana with 4 samples.

Results

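Sulphate transporters (SULTR) and adenosine 5′-phosphosulphate (APS) reductases (APR) were followed in the transcriptome of Arabidopsis thaliana seedlings. The set was given as 9 gene identifiers, 3 APS reductases and 6 sulphate transporters of groups 1, 2 and 4. Of these, 7 were among the 1984 genes in the deposited table, out of 37899 annotated genes in RefSeq TAIR10.1. SULTR1;1 (AT4G08620) and SULTR2;2 (AT1G77990) were not among them, so their expression was not analysed here, and they enter only the search of upstream sequences. The table holds only genes that had been called as different between the genotypes from these same libraries, and the set was chosen with those results known. The values of the members are therefore given as a description, with no test.

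Seedlings of the ndx1-4 mutant were compared with the Col-0 wild type at 10 days of age, with 2 mRNA-seq libraries per genotype. The ndx1-4 line is a single T-DNA insertion line (WiscDsLox344A04) in NODULIN HOMEOBOX (NDX), a homeobox protein of plants linked to gene repression and heterochromatin. Both genotypes share the Col-0 background, and no growth conditions or treatment are given for the seedlings in the sources used here. Values are FPKM, read abundance corrected for transcript length and for the size of the library, so levels can be set side by side between genes.

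Plants take up sulphate through SULTR proteins, which are proton-coupled membrane transporters. ATP sulphurylase then activates sulphate to APS. APS reductase, a plastid enzyme held to be a main control point of the pathway, reduces APS to sulphite, which sulphite reductase turns into the sulphide used for cysteine. APS can instead be phosphorylated by APS kinase to PAPS, the sulphate donor for glucosinolates and other sulphated products. When sulphate is scarce, transporter and APS reductase transcripts are known to rise, and miR395 is known to act on ATP sulphurylase and SULTR2;1 transcripts.

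NDX (AT4G03090) itself was listed at 0.98 and 1.00 FPKM in the ndx1-4 libraries, against 5.08 and 4.96 FPKM in the Col-0 libraries, so the libraries matched their labels. Tissue markers could not be checked, because the table holds called genes alone. For the 1478 genes averaging 10 FPKM or more, the higher library of a genotype exceeded the lower by a median of 1.034 times in ndx1-4 and 1.029 times in Col-0. Read depth is unknown. A fall in cell number and a fall in RNA per cell cannot be told apart in whole seedlings.

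Sequences bear on how the members can be measured and on which of them carry a miR395 match. APR1 and APR3 are close paralogues, and 82.4% of aligned coding bases were identical. They are shown at the stretch of one read length where they are most alike, because reads of 50 bases that fall there are assigned by a single base. The capital marks the base that differs, and positions are those of the TAIR10.1 assembly. The APR1 stretch lies on chromosome 4 (chr4:2326068-2326117, plus strand) in exon 3, and the APR3 stretch on chromosome 4 (chr4:11657888-11657937, minus strand) in exon 4.
APR1: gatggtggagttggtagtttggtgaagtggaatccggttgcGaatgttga
APR3: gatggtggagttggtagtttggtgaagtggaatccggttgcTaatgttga
The longest run the pair shares in this stretch is 41 bases, and neither gene shares any 50-base word with another annotated transcript.

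Mature miR395 is shown with its seed, bases 2 to 8, in capitals, as read from the RefSeq annotation of TAIR10.1. The 6 copies fall into 2 sequences that share the seed. Matches are shown 5′ to 3′ in the transcript, with the bases opposite the seed in capitals.
miR395a, miR395d and miR395e: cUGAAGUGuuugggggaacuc
miR395b, miR395c and miR395f: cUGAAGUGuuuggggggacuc
SULTR2;1 (chr5:3193268-3193288, plus strand, coding exon 1): aagttctcccaaaCACTTCAa
APS1 (chr3:8113164-8113184, plus strand, coding exon 1): gagttcctccaaaCTCTTCAt
APS3 (chr4:8414958-8414978, minus strand, coding exon 1): gagttcctccaaaCTCTTCAt
APS4 (chr5:17591121-17591141, minus strand, coding exon 1): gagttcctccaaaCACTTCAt
Among 27444 annotated mRNAs, 8 held a match with at most 3 mismatches, and 5 of these were in the table. SULTR2;1 was the only listed member among them, with 3 mismatches and 0 in the seed. The best matches in APR1, APR2, APR3, SULTR1;2, SULTR4;1 and SULTR4;2 had 8 or 9 mismatches. The miR395 hairpins were not among the listed genes.

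All 3 APS reductases were listed, and their transcripts in ndx1-4 stood at 32.3% to 40.5% of the Col-0 mean. APR1 (AT4G04610, chr4:2324878-2327064) had 12.69 and 13.79 FPKM in the ndx1-4 libraries, against 41.18 and 40.77 FPKM in the Col-0 libraries. Both ndx1-4 libraries were low, and the nearest libraries of the 2 genotypes were 26.98 FPKM apart. This was the largest ratio among the members, 3.09-fold lower in ndx1-4.

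APR3 (AT4G21990, chr4:11657008-11659167) had 9.33 and 10.19 FPKM in the ndx1-4 libraries, against 27.32 and 30.48 FPKM in the Col-0 libraries. Its level in ndx1-4 was 33.8% of that in Col-0, again with no overlap. On the log2(FPKM + 1) scale the profiles of APR1 and APR3 lay 0.147 apart over the 4 libraries, closer than either lay to APR2 (0.374 for APR1 and 0.356 for APR3).

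APR2 (AT1G62180, chr1:22975530-22977885) had 10.59 and 14.08 FPKM in the ndx1-4 libraries, against 31.94 and 29.00 FPKM in the Col-0 libraries. The genotypes did not overlap. Its ndx1-4 libraries differed by 1.33 times, the widest replicate spread of any listed member.

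APR2 is also the member whose reads are hardest to assign. A long noncoding transcript, AT1G08477 (chr1:22975698-22976479), lies wholly within APR2 on the opposite strand. Of the 2038 words of 50 bases in APR2, 901 (44.2%) also occur, on either strand, in AT1G08477 or in the neighbouring AT1G62170, and the library kit does not mark strand. AT1G08477 was listed too, at 11.91 and 8.72 FPKM in the ndx1-4 libraries, against 25.11 and 31.42 FPKM in the Col-0 libraries. In both genotypes the replicate with more APR2 had less AT1G08477. Pooling both transcripts, weighted by length, gave 15.1 and 17.4 FPKM in ndx1-4, against 41.5 and 41.0 FPKM in Col-0, and the replicates then differed by 1.15 and 1.01 times. The pooled level in ndx1-4 was 39.4% of that in Col-0, between the 40.5% of APR2 and the 36.5% of AT1G08477, as a weighted mean must be. What APR2 would be under another split of the shared reads was not tested.

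**Figure D1:**
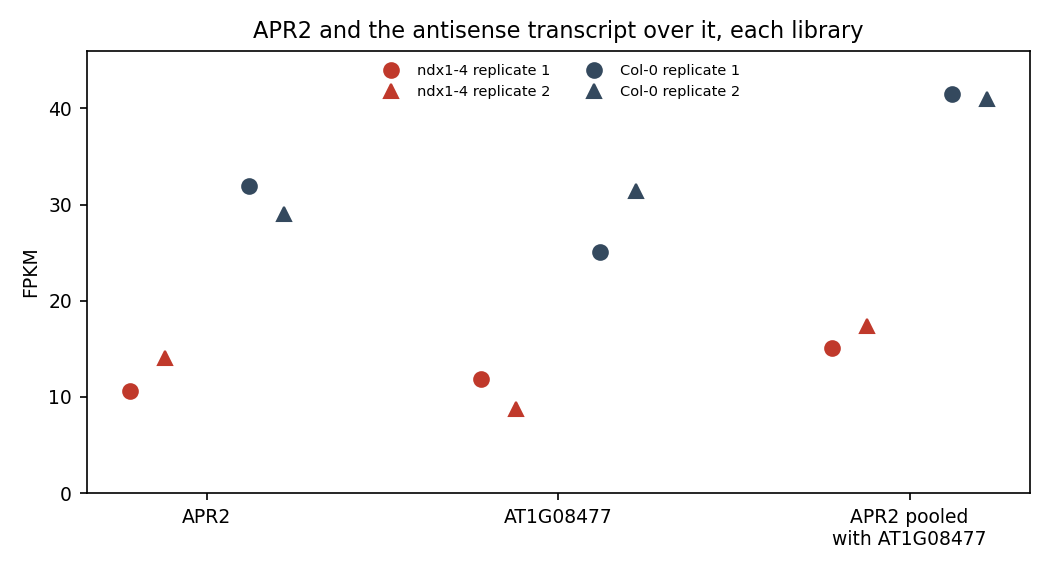
FPKM (y axis, linear from 0) of APR2, of the antisense transcript AT1G08477 and of both pooled by length, with 1 point per library (ndx1-4 red, Col-0 dark; circles are replicate 1 and triangles replicate 2). In ndx1-4, replicate 2 is the higher for APR2 (14.08 against 10.59) and the lower for AT1G08477 (8.72 against 11.91), and the Col-0 replicates cross in the opposite way.

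Summed over the 3 genes, APS reductase transcripts came to 32.6 and 38.1 FPKM in ndx1-4, against 100.4 and 100.3 FPKM in Col-0. The sum averaged 35.3 ± 3.85 FPKM in ndx1-4 and 100.3 ± 0.134 FPKM in Col-0 (SD, n = 2 each), 2.84-fold lower in ndx1-4. APR1 made up 38.9% and 36.2% of the sum in ndx1-4, against 41.0% and 40.7% in Col-0. APR3 took 28.6% and 26.8% in ndx1-4, against 27.2% and 30.4% in Col-0, so its shares overlapped between genotypes.

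The 4 listed transporters were also lower in ndx1-4, by less. SULTR1;2, the main transporter for sulphate uptake into roots (AT1G78000, chr1:29327515-29333220), had 28.58 and 27.63 FPKM in the ndx1-4 libraries, against 35.54 and 36.98 FPKM in the Col-0 libraries. Its level in ndx1-4 was 77.5% of that in Col-0, and the nearest libraries were 6.96 FPKM apart.

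SULTR2;1, a low-affinity transporter of vascular tissue that moves sulphate between root and shoot (AT5G10180, chr5:3193017-3197136), was the most abundant member in both genotypes. It had 63.50 and 61.79 FPKM in the ndx1-4 libraries, against 82.27 and 80.73 FPKM in the Col-0 libraries. The ndx1-4 level was 76.9% of the Col-0 level. SULTR2;1 lies 13.6 kb from FLC, a floral repressor that was higher in ndx1-4 (12.46 and 12.33 FPKM, against 3.77 and 5.85 FPKM in Col-0). Of the 3 annotated genes between them, 1 was listed, AT5G10150, at 74.7% of its Col-0 level.

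SULTR4;1 and SULTR4;2 release sulphate from the vacuole, and 83.4% of their aligned coding bases were identical. SULTR4;1 (AT5G13550, chr5:4355276-4359692) had 10.70 and 10.40 FPKM in the ndx1-4 libraries, against 13.98 and 14.23 FPKM in the Col-0 libraries. SULTR4;2 (AT3G12520, chr3:3967816-3972135) had 3.79 and 4.70 FPKM in the ndx1-4 libraries, against 7.65 and 8.91 FPKM in the Col-0 libraries.

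Within this pair the weaker gene was lower by the larger factor, 51.3% of Col-0 for SULTR4;2 and 74.8% for SULTR4;1. SULTR4;1 exceeded SULTR4;2 by 2.82 and 2.21 times in ndx1-4, against 1.83 and 1.60 times in Col-0. These ratios did not overlap between genotypes, and SULTR4;2 had the lowest FPKM of the members. SULTR4;2 overlaps an antisense noncoding transcript, AT3G02545, by 223 bp, and that transcript was not listed. Of the 2434 words of 50 bases in SULTR4;2, 0 occur in another annotated transcript.

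**Figure D2:**
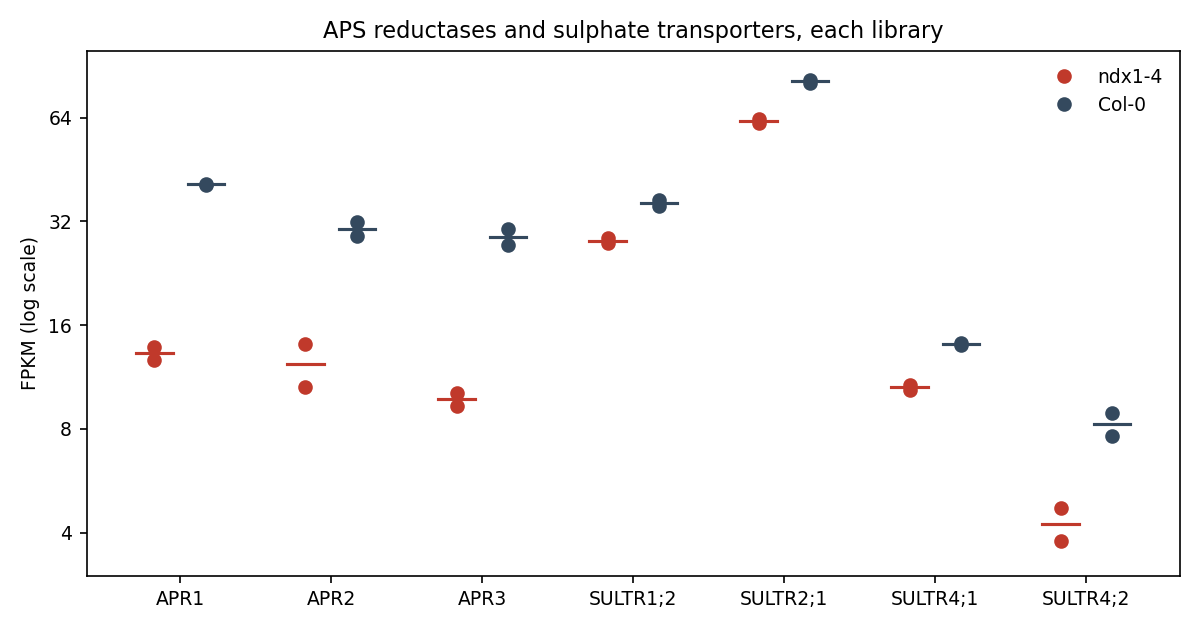
FPKM on a log axis for the 7 listed members, with 1 point per library and a bar at the mean of 2 libraries (ndx1-4 red and on the left, Col-0 dark and on the right of each pair). The genotypes are separated for every gene, widely for APR1, APR2 and APR3 and narrowly for SULTR1;2, SULTR2;1 and SULTR4;1.

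The 4 transporters summed to 106.6 and 104.5 FPKM in ndx1-4, against 139.4 and 140.8 FPKM in Col-0, or 75.3% of the Col-0 level. SULTR2;1 accounted for 59.6% and 59.1% of this sum in ndx1-4, against 59.0% and 57.3% in Col-0. SULTR4;2 took 3.6% and 4.5% in ndx1-4, against 5.5% and 6.3% in Col-0.

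**Figure D3:**
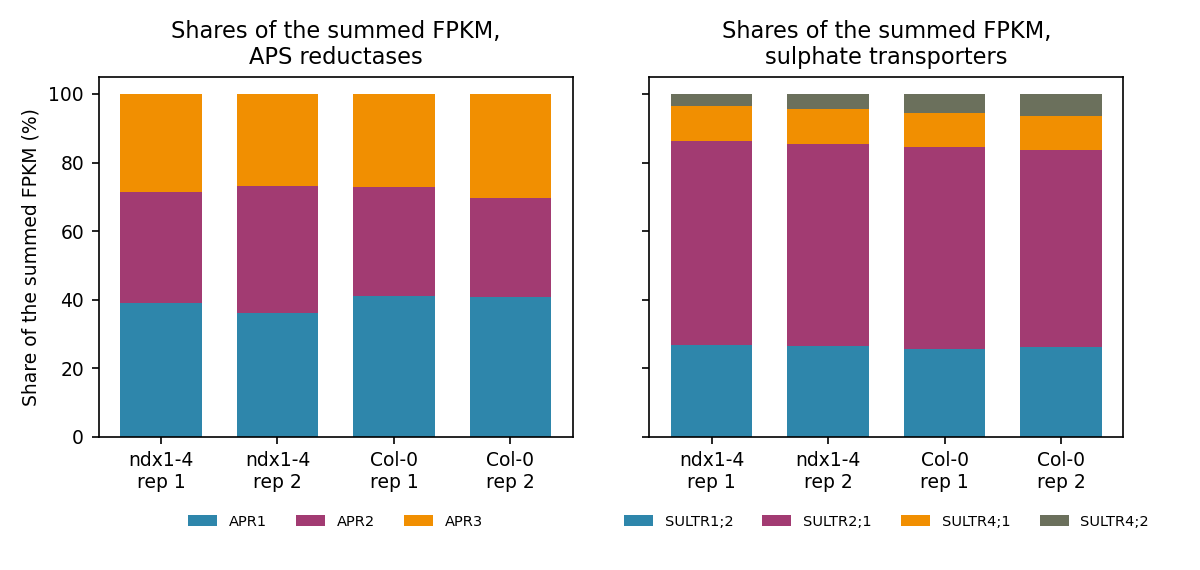
Share of the summed FPKM (y axis, percent) taken by each APS reductase (left) and each listed sulphate transporter (right), with 1 stacked bar per library and the ndx1-4 libraries on the left. SULTR4;2, the top segment of the right panel, is 3.6% and 4.5% in ndx1-4, against 5.5% and 6.3% in Col-0.

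The order of the members differed between the genotypes. In ndx1-4 it ran SULTR2;1, SULTR1;2, APR1, APR2, SULTR4;1, APR3 and SULTR4;2 by mean FPKM, and APR2 overlapped both of its neighbours, APR1 and SULTR4;1. In Col-0 it ran SULTR2;1, APR1, SULTR1;2, APR2, APR3, SULTR4;1 and SULTR4;2, and the only neighbours whose libraries overlapped were APR2 and APR3. APR1 transcripts were 0.444 and 0.499 times those of SULTR1;2 in ndx1-4, against 1.159 and 1.102 times in Col-0.

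All 7 listed members had lower FPKM in both ndx1-4 libraries than in either Col-0 library. Over the whole table, 56.5% of genes were lower in this way, and 99.9% did not overlap in one direction or the other, so separation itself does not mark the members. By limma on log2(FPKM + 1) with Benjamini-Hochberg adjustment at 0.01, 98.9% of the table passed again, 55.9% passed as lower and 43.0% as higher, a background that follows from the table having been chosen on these libraries. A mean at least 2-fold lower in ndx1-4 was found for 11.6% of the table and at least 1.5-fold lower for 19.8%. The 3 APS reductases were past 2-fold and SULTR4;2 past 1.5-fold. The other 3 transporters lay near the middle of the lower genes: of the 1102 genes lower in ndx1-4 with a ratio, 56.2% had a lower ratio than SULTR1;2 and 12.3% a lower ratio than APR1.

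The median difference over the 7 members was -0.82 on the log2(FPKM + 1) scale, beside -0.20 over all 1984 listed genes. When libraries were rescaled so that the listed genes had a median ratio near 1, the median of all listed genes shifted by 0.19. The factors came only from genes called as different, more often lower than higher, so this scaling removes the list's own median difference. Whether that median reflects library size cannot be told from called genes alone. Under this scaling 5 of the 7 members passed limma's threshold as lower, beside 30.8% of the table lower and 43.8% higher. SULTR1;2 and SULTR4;1 no longer did. The count is a description and no test of the members, which were chosen with their values known. With 1 library left out in turn, the difference of APR1 ran from -1.616 to -1.505. That of APR2 ran from -1.44 to -1.06 and that of APR3 from -1.55 to -1.397. The ranges were -0.384 to -0.328 for SULTR1;2 and -0.394 to -0.355 for SULTR2;1. For SULTR4;1 the range was -0.406 to -0.368, and for SULTR4;2 it was -0.951 to -0.70. Under the scaling the APS reductases differed by -1.38 (APR1), -1.07 (APR2) and -1.29 (APR3). The transporters differed by -0.17 (SULTR1;2), -0.18 (SULTR2;1), -0.21 (SULTR4;1) and -0.66 (SULTR4;2), so 0.16 to 0.19 of each transporter difference depends on the scaling.

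Of 66 other genes written down for the pathway and its surroundings, 27 were listed, and 25 were lower and 2 higher in ndx1-4 by the same limma test, beside 55.9% lower and 43.0% higher over the table. These genes too were written down with earlier results known. Their median log2 difference was -0.64. Under the median-ratio scaling 21 were lower and 2 higher, beside 30.8% and 43.8% of the table, with SIR, CYSC1, SOT16 and CYP83B1 no longer past the threshold, and all 27 kept their direction. With 1 library left out in turn, 25 of the 27 differences were negative each time. This could not have changed, because the libraries of these genes do not overlap between genotypes. Not all of the lower and higher calls held in these fits, which leave 1 library in a genotype. The remaining 39 were absent from the table and are not analysed here, SLIM1 and HY5, transcription factors known to regulate the pathway, included.

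Of 8 further SULTR genes, 2 were listed, and both were lower, beside 55.9% of the table. SULTR1;3, a transporter of the phloem, had 0.17 and 0.18 FPKM in ndx1-4, against 1.69 and 1.73 FPKM in Col-0. SULTR3;4 had 4.40 and 4.70 FPKM in ndx1-4, against 9.35 and 9.61 FPKM in Col-0.

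At the activation step before APS reductase, 3 of the ATP sulphurylase genes were listed, and they did not move in one direction. APS1 had 119.45 and 118.92 FPKM in ndx1-4, against 151.65 and 145.24 FPKM in Col-0. APS3 was lower too, at 60.9% of Col-0. APS4 was higher, with 74.18 and 74.55 FPKM in ndx1-4, against 64.74 and 65.09 FPKM in Col-0. Their sum in ndx1-4 was 89.3% of that in Col-0.

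The miR395 matches printed above fall on both sides of this split. SULTR2;1, APS1 and APS3, each with 3 mismatches, were lower in ndx1-4. APS4, with 2 mismatches, was higher. So was AT2G28780, also with 2, at 5.55 and 5.75 FPKM in ndx1-4, against 1.81 and 2.24 FPKM in Col-0. Mature miR395 was not measured in these libraries, and its part in these values was not tested.

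After APS reductase, sulphite reductase (SIR) had 66.68 and 68.35 FPKM in ndx1-4, against 81.83 and 82.38 FPKM in Col-0. APS reductase transcripts were 0.489 and 0.557 times those of SIR in ndx1-4, against 1.227 and 1.217 times in Col-0. In cysteine and glutathione synthesis 2 of 15 genes were listed, both lower, beside 55.9% of the table. They were SERAT2;2, a serine acetyltransferase, at 55.3% of Col-0, and CYSC1, a mitochondrial cyanoalanine synthase, at 86.1%.

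On the PAPS branch, the APS kinases APK1 and APK2 stood at 72.2% and 64.1% of their Col-0 levels. The 2 summed to 67.9 and 72.8 FPKM in ndx1-4, against 101.4 and 105.1 FPKM in Col-0. APS reductases therefore had 0.480 and 0.522 times the transcripts of these 2 kinases in ndx1-4, against 0.991 and 0.954 times in Col-0. APK3 and APK4 were not listed, so the ratio does not cover all APS kinases. Of 18 glucosinolate synthesis genes, 7 were listed, 6 lower and 1 higher, beside 55.9% lower and 43.0% higher over the table. MYB28, a regulator of aliphatic glucosinolates, was at 71.7% of Col-0, and MAM1, a chain elongation enzyme, was the higher one at 118.0%. MAM3, its neighbour in the same step, was at 49.7%. CYP79B2, CYP79B3 and CYP83B1, cytochromes P450 that make the core structure, were at 69.97%, 67.2% and 86.6% of Col-0, and GGP1, which processes glutathione conjugates, was at 76.2%. SOT16, a sulphotransferase that uses PAPS in the final step of the core, was at 83.7%.

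Of 10 genes known as markers of sulphur deficiency, 9 were listed and all 9 were lower, beside 55.9% of the table. Their median level in ndx1-4 was 11.6% of that in Col-0. The markers ranged from 1.02% (BGLU28) to 47.9% (SHM7). That range took in SULTR1;3 at 10.2% and the APS reductases at 32.3% to 40.5%, though no marker lay between 19.4% (LSU2) and 39.5% (AT1G04770). LSU1, a small protein induced by low sulphur, had 10.39 and 9.61 FPKM in ndx1-4, against 95.67 and 80.75 FPKM in Col-0. SDI1, a repressor of glucosinolate synthesis, had 2.10 and 1.68 FPKM in ndx1-4, against 27.59 and 32.15 FPKM in Col-0. BGLU28, a beta-glucosidase that breaks down glucosinolates, had 0.25 and 0.34 FPKM in ndx1-4, against 28.90 and 28.80 FPKM in Col-0. The other 6 ranged from BGLU30, another beta-glucosidase, at 7.22% of Col-0, to SHM7, a serine hydroxymethyltransferase, at 47.9%, and included GGCT2;1, which degrades glutathione, at 11.6%, LSU3 at 13.1%, LSU2 at 19.4% and AT1G04770 at 39.5%. AT1G04770 is named by its identifier because the annotation gives it no marker name. These genes had been seen to be lower in earlier results of these libraries, so their count is not independent evidence of direction.

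**Figure D4:**
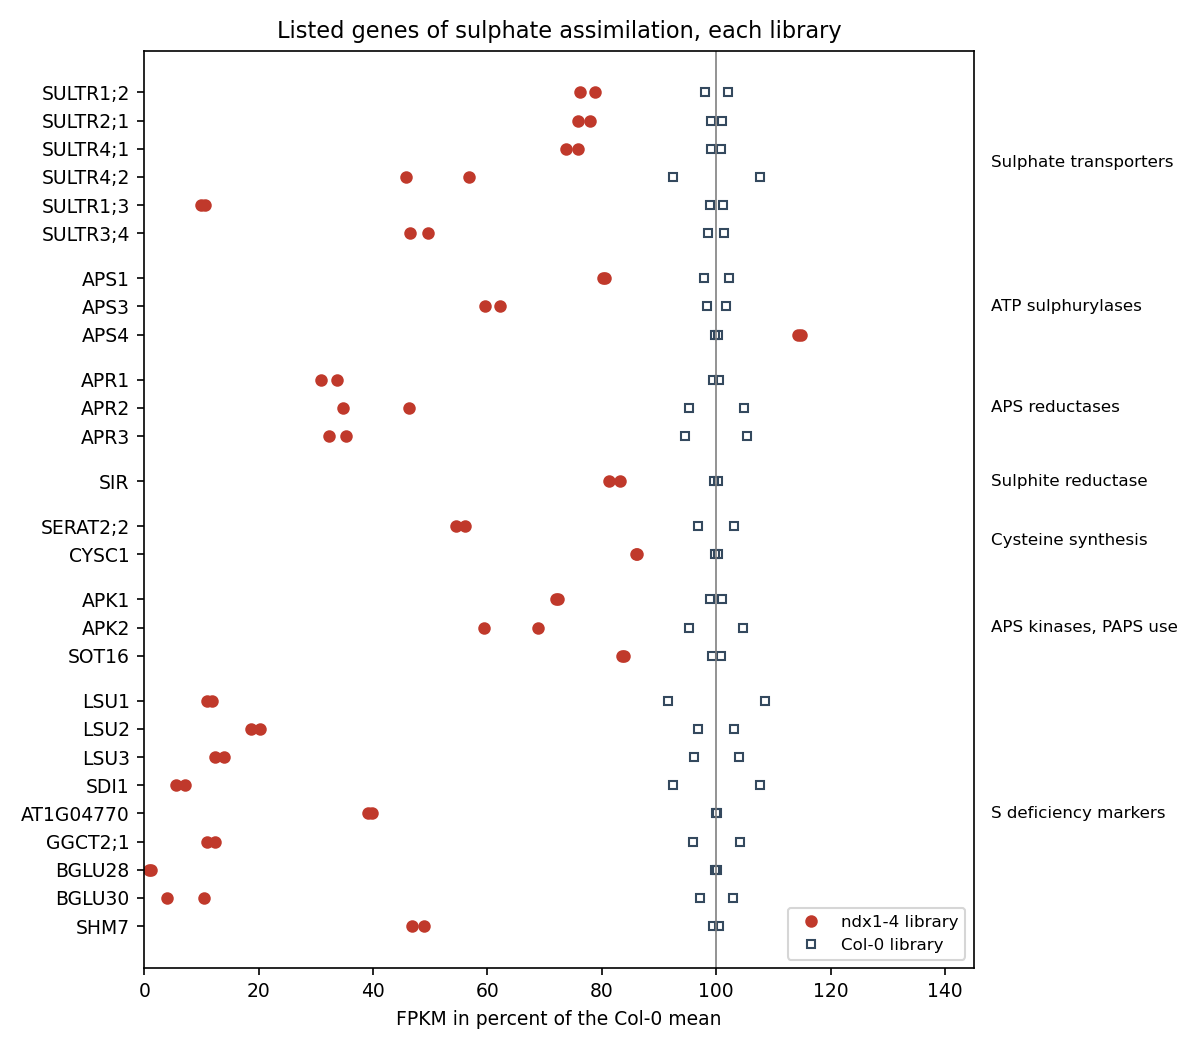
FPKM of each library as a percent of the Col-0 mean of the same gene (x axis), for the listed transporters, the enzymes in order of the pathway and the sulphur deficiency markers, with ndx1-4 as filled red circles and Col-0 as open squares. APS4 is the one gene shown whose ndx1-4 libraries lie to the right of Col-0, and the APS reductases lie left of SULTR1;2, SULTR2;1 and SULTR4;1 and right of LSU1, LSU2 and LSU3.

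For each member, the listed gene outside the set with the most similar profile over the 4 libraries was found by Euclidean distance of log2(FPKM + 1) centred on the gene's mean. SULTR2;1 was closest to AT5G19120 (distance 0.0031), which had 152.79 and 148.48 FPKM in ndx1-4, against 197.84 and 193.85 FPKM in Col-0. SULTR1;2 was closest to ARC5 (0.0122) and SULTR4;1 to HB-2 (0.0114). APR1 was closest to NDX itself (0.0783), APR2 to OCT1 (0.0708), APR3 to AT1G12030 (0.0640) and SULTR4;2 to AT4G23000 (0.0891). The pseudocount compresses low genes, so near profiles can hide unlike ratios: AT1G12030, at 0.05 and 0.10 FPKM in ndx1-4, against 1.82 and 2.01 FPKM in Col-0, was at 3.92% of Col-0, while APR3 was at 33.8%, and NDX was at 19.7%, while APR1 was at 32.3%.

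The 250 bases before each gene's start were searched on both strands for GAGAC, the core of a sulphur-responsive element, and for CACGTG, the G-box. Neither was found before any of the 9 genes. In all, 25.8% of 27443 promoters of that length held GAGAC and 6.49% held CACGTG. In 1000 bases, GAGAC occurred 1 time before APR1, 1 time before SULTR1;2 and 4 times before SULTR4;2, 2 times before SULTR1;1 and 1 time before SULTR2;2, and it was in 71.7% of all promoters. The other 4 genes had no match in that window. The 1000-base windows of APR3, SULTR2;2, SULTR4;1 and SULTR4;2 run into other annotated genes. For SULTR2;2 and SULTR4;2 this holds for the 250-base window too.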

How the data were processed

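Polyadenylated RNA of 10-day-old seedlings was made into libraries with a kit that does not mark strand and read as single 50-base reads. The authors used Salmon on Araport11 transcripts, correcting for GC bias and leaving out duplicate reads, tested genes with DESeq2 and deposited FPKM per library for the genes they called (adjusted p under 0.01). The deposited table also holds the authors' fold changes and adjusted p-values, which were not used; the table of transposable elements was not used either. Commas inside large values were removed. All identifiers and positions matched RefSeq TAIR10.1.

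The members and gene lists were chosen with earlier results of these data known. Every listed member and pathway gene was named, with NDX as the label check and the nearest profile of each member. SDI2 was dropped as a name. In R 4.3.3, limma 3.58.1 was fitted, with its trend option, to log2(FPKM + 1) over the whole table, checked on simulated data, for list counts and backgrounds. That scale understates changes of low genes. An exact permutation of 2 against 2 libraries cannot go below p = 0.333, so none was used. Depth is unknown, so no counting interval is given. The study describes the replicates as biological; nothing else is given on their source. Alternatives were a pseudocount of 0.1, a minimum mean of 1 FPKM, median-ratio scaling, no trend, a replicate block and leaving out each library. Pooling APR2 with AT1G08477 was added after seeing the data. Same-numbered libraries did not deviate together (r = 0.024 over genes).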

Additional observations from a re-analysis of the deposited data

How the results depend on the processing

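Of 57 member differences recomputed under an alternative, 8 moved by more than 1 SD of the replicates, under median-ratio scaling or, for APR1 and SULTR4;1, a pseudocount of 0.1. No sign turned, but only median-ratio scaling could have turned one. The pseudocount, the minimum mean, the replicate block and leaving out a library cannot do so for members whose libraries do not overlap. Nor can pooling APR2 with AT1G08477, whose libraries do not overlap either. Among the alternatives that kept every library, only median-ratio scaling ended limma calls of members, those of SULTR1;2 and SULTR4;1. Not all member calls held when a library was left out, where 1 library stood alone in its genotype. Under median-ratio scaling the summed APS reductases had a log2 ratio of -1.31 in place of -1.51, and the summed transporters -0.22 in place of -0.41. Without 1 library in turn, the APS reductase sum ranged from -1.62 (without ndx1-4 replicate 2) to -1.40, and the transporter sum from -0.42 to -0.40. Pooling APR2 with AT1G08477 gave -1.50 for the APS reductase sum.

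By limma, 1963 of 1984 listed genes passed, 43.5% of them higher in ndx1-4, and 1481 passed under median-ratio scaling, 58.7% of them higher. Leaving out 1 library gave 773 to 815 genes (800 without Col-0 replicate 1, 815 without Col-0 replicate 2, 812 without ndx1-4 replicate 1 and 773 without ndx1-4 replicate 2), where fewer samples entered the fit and the lone library was assumed to vary like the other genotype. With the replicate number as a replicate block, 1958 passed. The numbers did not pair the libraries, and in this balanced design the block cannot move a mean difference. Low genes are limited by the rounding of FPKM to 0.01.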
